A study of Mus musculus with 8 samples.

Results

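The acyl-CoA synthetases described here are 8 genes of mouse brown adipose tissue, the heat-producing fat, taken by name out of the 22552 genes in the deposited mRNA table: the long-chain members Acsl1, Acsl3, Acsl4, Acsl5 and Acsl6 and the short-chain members Acss1, Acss2 and Acss3. All 8 were found, and 7 of them passed the filter of a mean of at least 1 FPKM, which 11597 genes passed. Null mice, of genotype mmu-mir-193b -/-, lack the microRNAs miR-193b and miR-365-1, and WT mice are mmu-mir-193b +/+. Mice of both groups were 2 months old, and their strain is given as 129SV::FVB/N::C57BL/6. The deletion was bred from floxed miR-193b mice carrying MMTV-Cre, a Cre transgene driven by a mammary tumour virus promoter, and the transgene was bred out of the offspring. There were 3 Null and 3 WT mRNA samples, which the authors combined into 1 value per genotype, called here the Null pool and the WT pool. Values are in FPKM, fragments per kilobase of transcript per 1000000 mapped fragments, a level per length meant to allow comparison between genes. Some estimates may have failed, so comparisons between genes are approximate.

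A fatty acid must be joined to coenzyme A before a cell can burn it, store it or build it into membranes, and acyl-CoA synthetases carry out this step at the cost of ATP. The Acsl enzymes sit on the membranes of the endoplasmic reticulum, mitochondria and lipid droplets and take long-chain fatty acids. The Acss enzymes take acetate and other short-chain acids, in the cytosol and nucleus or in mitochondria. In brown fat, activated long-chain fatty acids feed the mitochondria during heat production, and acetyl-CoA feeds the synthesis of new lipid.

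With 1 combined value per genotype there is no SD, no n and no test, so the differences below describe these pools and have no replicate check. The deletion was visible in the single microRNA library of each genotype: miR-193b-3p was at 11.5 in Null and 3705 in WT, miR-193b-5p at 0.0821 in Null and 37.9 in WT, and miR-365-1-5p at 0.0821 in Null and 11.8 in WT. These values are a signal on the authors' scale, headed RPM in their table although each column sums to over 1000000. How deeply the mRNA libraries were sequenced is unknown. The mRNA columns summed to 590327 FPKM in Null and 508701 FPKM in WT. Brown fat markers were plentiful in both pools, with Ucp1, the uncoupling protein that makes heat, at 2487 FPKM in Null and 3016 FPKM in WT.

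Of the 7 synthetases that passed the filter, 5 were lower in the Null pool by 1.5-fold or more, 2 lay within 1.5-fold and 0 were higher. Over all 11597 genes, 6.75% were lower by that much and 7.87% were higher. The 8 members were chosen with earlier results of these data known, so this contrast with all genes is not a test. Fold differences were taken as log2((Null + 1)/(WT + 1)), which understates the change of low genes. The median log2 ratio was -0.84 over the 7 synthetases and 0.01 over all genes. On the deposited scale, Acss2 was the only one lower by 2-fold or more. Of all genes, 1.65% were lower and 2.17% higher by 2-fold or more. Summed over all 8 members, the level was 891 FPKM in the Null pool and 1631 FPKM in the WT pool, so Null held 54.6% of the WT sum. Of the summed difference of -740 FPKM, Acss2 made up 44.9%, Acsl1 35.3% and Acsl5 14.7%. In bulk tissue, fewer cells of a type and less RNA per cell cannot be told apart.

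**Figure D1:**
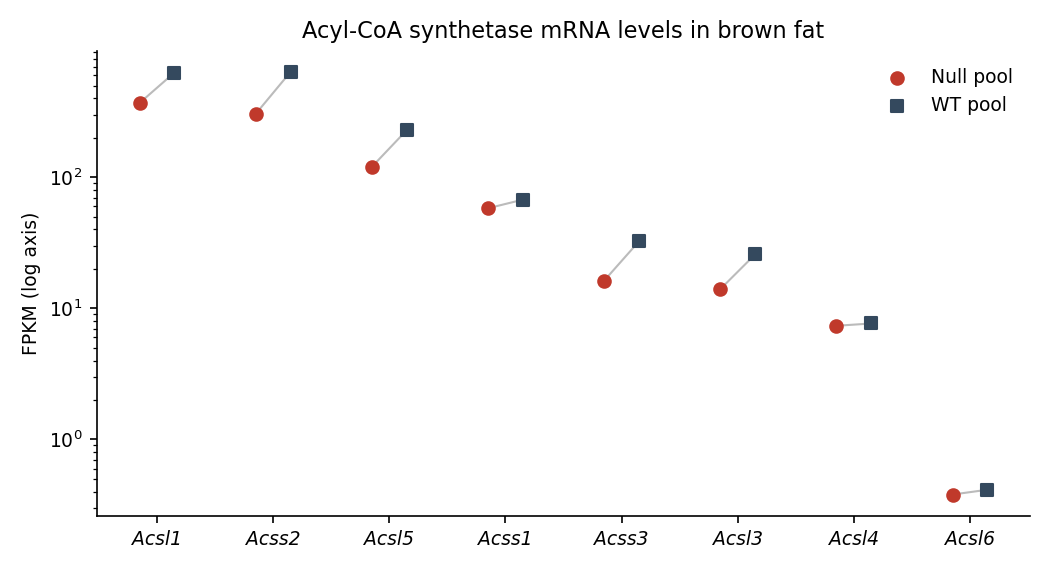
Level of each acyl-CoA synthetase in FPKM (vertical log axis) in the Null pool (red circles) and the WT pool (dark squares), 1 combined value per genotype with no error bar, genes ordered by mean level. Acsl1, Acss2, Acsl5, Acss3 and Acsl3 lie clearly lower in Null, while Acss1, Acsl4 and Acsl6 lie close together in both pools.

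The sequence before the start of transcription is shown for 3 abundant genes that were lower in Null together, Acss2, Acsl1 and Acsl5, and for Acsl4, whose level hardly differed. Each line gives the 250 bases before an annotated start, 5′ to 3′ on the strand of the gene, from RefSeq on build GRCm38.p6. Acsl1 has a pair of annotated starts in that table. The deposited table was made on mm9 per the submitters' processing notes and gives 1 value per gene, so the starts in use in these samples were not measured. Capitals mark matches on either strand to 5 motifs: the sterol regulatory element TCACNCCAC, the E-box CACGTG, the half-site AGGTCA of PPAR and RXR receptors, the CCAAT box and the GC box GGGCGG.
Acss2 (chr2:155517793-155518042, plus strand): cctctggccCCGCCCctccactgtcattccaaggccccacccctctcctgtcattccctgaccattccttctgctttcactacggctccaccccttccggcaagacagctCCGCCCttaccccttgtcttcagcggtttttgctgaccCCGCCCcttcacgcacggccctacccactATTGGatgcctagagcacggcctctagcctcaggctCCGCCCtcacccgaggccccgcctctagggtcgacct
Acsl1, upstream start (chr8:46470787-46471036, plus strand): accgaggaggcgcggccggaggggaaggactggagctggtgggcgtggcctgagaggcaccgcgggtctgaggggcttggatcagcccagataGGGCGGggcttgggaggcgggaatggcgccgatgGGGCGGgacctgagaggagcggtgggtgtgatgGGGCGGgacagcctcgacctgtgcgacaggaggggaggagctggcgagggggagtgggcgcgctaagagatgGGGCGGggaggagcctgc
Acsl1, downstream start (chr8:46490716-46490965, plus strand): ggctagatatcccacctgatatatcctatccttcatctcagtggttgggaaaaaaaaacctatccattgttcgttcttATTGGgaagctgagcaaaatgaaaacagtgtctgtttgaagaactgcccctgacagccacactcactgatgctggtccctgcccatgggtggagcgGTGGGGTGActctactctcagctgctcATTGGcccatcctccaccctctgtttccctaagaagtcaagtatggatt
Acsl5 (chr19:55253119-55253368, plus strand): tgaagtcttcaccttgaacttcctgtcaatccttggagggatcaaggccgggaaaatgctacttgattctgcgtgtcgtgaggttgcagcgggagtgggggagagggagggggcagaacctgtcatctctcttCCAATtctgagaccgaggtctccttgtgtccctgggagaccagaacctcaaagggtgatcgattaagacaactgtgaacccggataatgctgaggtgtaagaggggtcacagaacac
Acsl4 (chrX:142390536-142390785, minus strand): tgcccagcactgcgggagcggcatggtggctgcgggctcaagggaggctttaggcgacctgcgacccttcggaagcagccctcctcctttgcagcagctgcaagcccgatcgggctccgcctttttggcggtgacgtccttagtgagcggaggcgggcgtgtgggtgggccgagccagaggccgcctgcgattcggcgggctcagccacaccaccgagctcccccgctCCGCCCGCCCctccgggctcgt

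The 4 genes did not share 1 pattern of motifs. The Acss2 window held 4 GC boxes and 1 CCAAT box, and the window before the upstream start of Acsl1 held 4 GC boxes. The window before the downstream start of Acsl1 held 1 sterol regulatory element, 76 bases before the start and on the opposite strand, and 2 CCAAT boxes. The Acsl5 window held 1 CCAAT box and the Acsl4 window 2 overlapping GC boxes. The 5 windows shown held 0 E-boxes and 0 half-sites. Among 32851 such windows of annotated starts, 1.05% held the sterol regulatory element, 6.02% the E-box, 14.0% the half-site, 33.8% the CCAAT box and 32.7% the GC box. Matches are descriptions of letters and not measured binding sites. Windows were given for 7 of the 8 genes.

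Acsl1, the main long-chain isoform of fat cells and needed in mice for full fatty acid oxidation in cold-exposed brown fat, was at 369 FPKM in the Null pool and 630 FPKM in the WT pool. Null thus held 58.6% of the WT level, a log2 ratio of -0.77, and 3.28% of all genes had a lower ratio. It was still one of the more abundant mRNAs of the tissue, at rank 229 of 22552 genes in Null and rank 116 in WT. The ratio of the Acsl1 level to that of Cpt1b, the muscle-type carnitine palmitoyltransferase that passes activated fatty acids on towards the mitochondrial matrix, was 0.997 in Null and 1.59 in WT. Cpt1b itself was at 370 FPKM in Null and 397 FPKM in WT.

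Acsl5, an isoform of endoplasmic reticulum and mitochondria that is best known from intestine and liver, was at 120 FPKM in the Null pool and 229 FPKM in the WT pool. Null held 52.5% of the WT level, a log2 ratio of -0.92, the lowest among the long-chain members. The gene stood at rank 670 in Null and rank 326 in WT. Acsl1 and Acsl5 were both lower, and the ratio of their levels was 3.07 in Null and 2.75 in WT.

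Acsl3, an isoform of the endoplasmic reticulum that moves to growing lipid droplets, was at 14.0 FPKM in the Null pool and 25.8 FPKM in the WT pool. Its log2 ratio was -0.84, with Null at 54.3% of WT. Acsl3 thus differed by about as much as the more abundant Acsl1 and Acsl5.

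Acsl4, which prefers arachidonic acid and supplies polyunsaturated acyl groups to membrane phospholipids, was at 7.37 FPKM in the Null pool and 7.67 FPKM in the WT pool, a log2 ratio of -0.05. It was the only long-chain member that passed the filter and lay within 1.5-fold. Acsl6, known from brain for its preference for docosahexaenoic acid, was low, at 0.380 FPKM in Null and 0.413 FPKM in WT, under the filter in both.

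Acsl1, Acsl5 and Acsl3 were lower by similar factors, and the balance within the long-chain family was close in both pools. Acsl1 made up 72.2% of the summed Acsl level in Null and 70.6% in WT, and Acsl5 23.5% in Null and 25.6% in WT. Acsl3 made up 2.74% in Null and 2.89% in WT. Acsl4 held a larger share, at 1.44% of the sum in Null and 0.859% in WT, with almost the same FPKM in each. Put as a ratio, the Acsl1 level was 50.1 times that of Acsl4 in Null and 82.2 times in WT. The family sum was 511 FPKM in Null and 893 FPKM in WT.

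**Figure D2:**
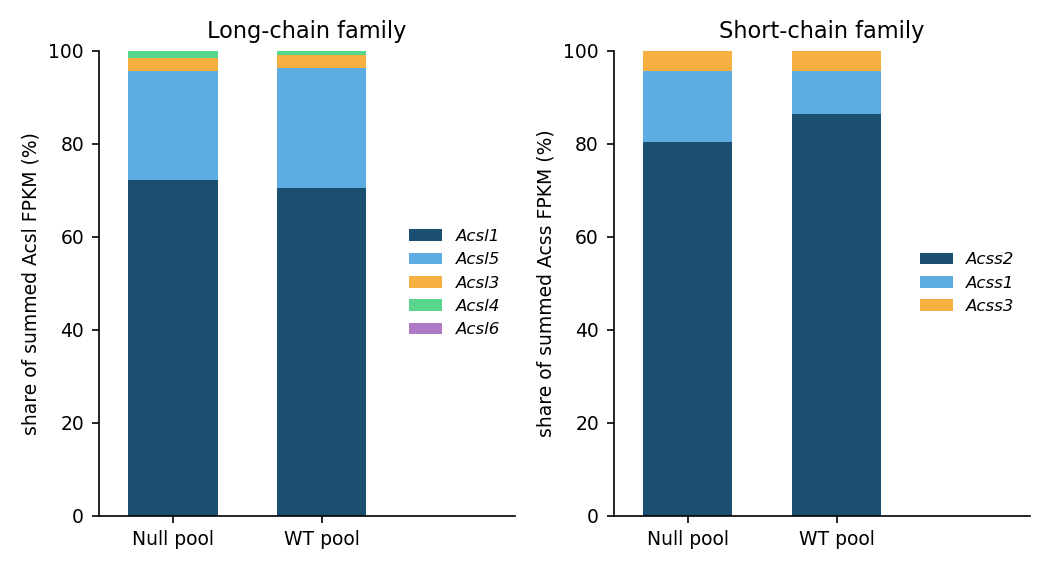
Share of each member in the summed FPKM of its family (vertical axis, percent) for the long-chain Acsl family (left) and the short-chain Acss family (right), with the Null pool left of the WT pool in each panel. The long-chain shares nearly match, while Acss1 takes 15.3% of the short-chain sum in Null and 9.15% in WT.

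Among the short-chain enzymes, Acss2 was the most abundant and differed most. It makes acetyl-CoA from acetate in the cytosol and nucleus and is a known target of the sterol regulatory element-binding proteins. Acss2 was at 305 FPKM in the Null pool and 638 FPKM in the WT pool, so Null held 47.8% of the WT level, a log2 ratio of -1.06. Only 1.35% of all genes had a lower ratio. It stood at rank 284 in Null and rank 115 in WT, where it was level with Acsl1: the ratio of Acsl1 to Acss2 was 1.21 in Null and 0.988 in WT.

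Acss3, a mitochondrial enzyme that favours propionate, was at 16.3 FPKM in the Null pool and 32.5 FPKM in the WT pool. Null held 50.1% of the WT level, a log2 ratio of -0.95 that lay just within 2-fold on this scale. Acss1, which makes acetyl-CoA from acetate inside mitochondria, was at 58.1 FPKM in the Null pool and 67.5 FPKM in the WT pool. With a log2 ratio of -0.21 it was the one short-chain member within 1.5-fold.

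The largest difference in share was 6.15 percentage points within the short-chain family, for Acss1, and -2.12 percentage points within the long-chain family, for Acsl5. Acss2 made up 80.4% of the summed Acss level in Null and 86.4% in WT, and Acss1 15.3% in Null and 9.15% in WT. The cytosolic enzyme Acss2 was thus 5.25 times the level of the mitochondrial enzyme Acss1 in Null and 9.44 times in WT. Acss3 made up 4.29% in Null and 4.40% in WT. The family sum was 379 FPKM in Null and 738 FPKM in WT.

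The order of the 8 levels was the same in both pools but for the top pair. In Null it ran Acsl1, Acss2, Acsl5, Acss1, Acss3, Acsl3, Acsl4 and Acsl6, and in WT Acss2 stood just above Acsl1. With no spread between samples, neighbours such as Acss3 and Acsl3 cannot be said to differ. Among genes with a mean of 100 to 1000 FPKM, the range that holds Acsl1, Acss2 and Acsl5, 6.87% stood lower and 20.3% higher in Null by 1.5-fold or more, out of 713 genes. Of genes with a mean of 10 to 100 FPKM, the range of Acsl3, Acss3 and Acss1, 6.51% were lower and 7.65% were higher.

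**Figure D3:**
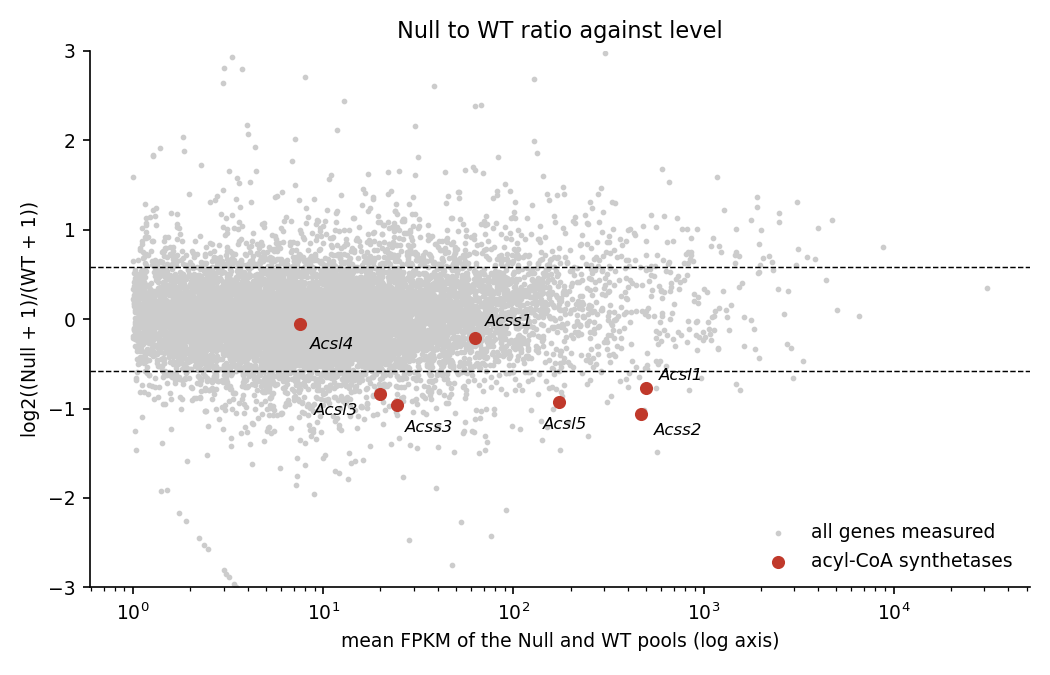
Each gene's log2 ratio of Null to WT (vertical axis) against its mean FPKM over both pools (horizontal log axis), for all 11597 genes measured (grey) and the 7 synthetases that passed the filter (red, labelled), with dashed lines at 1.5-fold. 66 genes with a log2 ratio beyond 3 in either direction are outside the axis. Acsl1, Acsl3, Acsl5, Acss2 and Acss3 lie below the lower dashed line, and Acsl4 and Acss1 lie between the lines.

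Acyl-CoA synthetases outside these 2 families were described as a list. Of 17 listed, 10 passed the filter, 1 was lower by 1.5-fold or more and 0 were higher. For this and the lists below, the shares over all genes were 6.75% lower and 7.87% higher. A single call in a list of this size is near those shares. Their median log2 ratio was -0.23. The lower one was Aacs, the cytosolic acetoacetyl-CoA synthetase that feeds ketone bodies into lipid synthesis, at 96.3 FPKM in Null and 153 FPKM in WT. Acsm3, a medium-chain synthetase, was at 80.6 FPKM in Null and 59.1 FPKM in WT. Acsf3, a mitochondrial malonyl-CoA synthetase, was at 56.7 FPKM in Null and 79.8 FPKM in WT, and Acsf2 at 20.4 FPKM in Null and 30.0 FPKM in WT. Slc27a2, a transport protein with very-long-chain synthetase activity, was at 63.5 FPKM in Null and 65.5 FPKM in WT.

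Of 6 measured genes that carry acyl groups into and out of mitochondria or handle acylcarnitines, 0 lay beyond 1.5-fold in either direction. With columns summing to 1000000, and likewise with quantile normalization, 1 of them was lower by that much. Slc25a20, the carnitine-acylcarnitine carrier, was at 314 FPKM in Null and 315 FPKM in WT, Cpt2 at 245 FPKM in Null and 303 FPKM in WT, and Crat at 163 FPKM in Null and 227 FPKM in WT. Of 14 measured genes of glycerolipid synthesis 3 were lower and 0 higher, with a median log2 ratio of -0.20. The 3 were Gpam, which starts glycerolipid synthesis from acyl-CoA (34.2 FPKM in Null and 98.5 FPKM in WT), Lpin1, a phosphatidate phosphatase (81.4 FPKM in Null and 166 FPKM in WT), and Agpat2, which adds the next acyl group (1126 FPKM in Null and 1856 FPKM in WT).

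The enzymes that finish triglycerides were close in both pools, with Dgat2 at 1044 FPKM in Null and 1068 FPKM in WT and Dgat1 at 161 FPKM in Null and 160 FPKM in WT. Agpat3 was at 147 FPKM in Null and 159 FPKM in WT. Of 6 measured acyl-CoA binding proteins 0 lay beyond 1.5-fold, and 1 was lower by that much with columns summing to 1000000. Dbi, the main acyl-CoA binding protein, was at 5188 FPKM in Null and 4834 FPKM in WT. Scp2 was at 138 FPKM in Null and 143 FPKM in WT, Acbd5 at 38.6 FPKM in Null and 40.9 FPKM in WT, and Acbd4 at 67.9 FPKM in Null and 91.7 FPKM in WT.

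Of 14 measured genes around Acss2 in the supply and use of acetyl-CoA, 5 were lower in Null at the same threshold and 0 were higher, although the list's median log2 ratio was -0.17. Acly, which makes cytosolic acetyl-CoA from citrate, was at 1139 FPKM in Null and 1969 FPKM in WT. Slc25a1, the carrier that exports citrate from mitochondria, was at 616 FPKM in Null and 1068 FPKM in WT. Me1, the malic enzyme that supplies NADPH, was at 230 FPKM in Null and 419 FPKM in WT. Acacb, the acetyl-CoA carboxylase of the mitochondrial surface, was at 118 FPKM in Null and 230 FPKM in WT, and the fifth was Acaca, the cytosolic carboxylase. Acss2 relative to Acly was 0.268 in Null and 0.324 in WT. Cs, the citrate synthase of mitochondria, was at 814 FPKM in Null and 1033 FPKM in WT, within 1.5-fold. Hmgcs1 was listed at 0 in both pools, which can be a failed estimate.

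The genes that work beside Acsl4 in phospholipid remodelling showed 1 of 7 measured genes beyond 1.5-fold. It was Gpx4, the peroxidase that clears lipid peroxides from membranes, at 308 FPKM in Null and 203 FPKM in WT, and with each of the 3 other scalings it lay within 1.5-fold. Lpcat3, which places arachidonoyl groups into phospholipids, was at 38.1 FPKM in Null and 50.2 FPKM in WT. Lclat1 was at 6.41 FPKM in Null and 9.02 FPKM in WT, Mboat7 at 11.6 FPKM in Null and 13.0 FPKM in WT, and Pla2g6 at 9.48 FPKM in Null and 10.5 FPKM in WT.

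Among 15 regulators of lipid genes, all of which passed the filter, 4 were lower at this threshold and 0 were higher. The median log2 ratio was -0.34. Insig1, itself a target of the sterol regulatory pathway that holds SREBPs back in the endoplasmic reticulum, was at 120 FPKM in Null and 268 FPKM in WT. Mlxipl, the glucose-responsive factor ChREBP, was at 194 FPKM in Null and 312 FPKM in WT. Ppara, a fatty acid receptor that controls oxidation genes, was at 41.2 FPKM in Null and 71.9 FPKM in WT. The fourth was Rxra, the partner receptor of the PPARs. Srebf1, which encodes SREBP-1, was at 78.3 FPKM in Null and 103 FPKM in WT, within 1.5-fold. Pparg, the main adipogenic receptor, was at 237 FPKM in Null and 233 FPKM in WT.

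**Figure D4:**
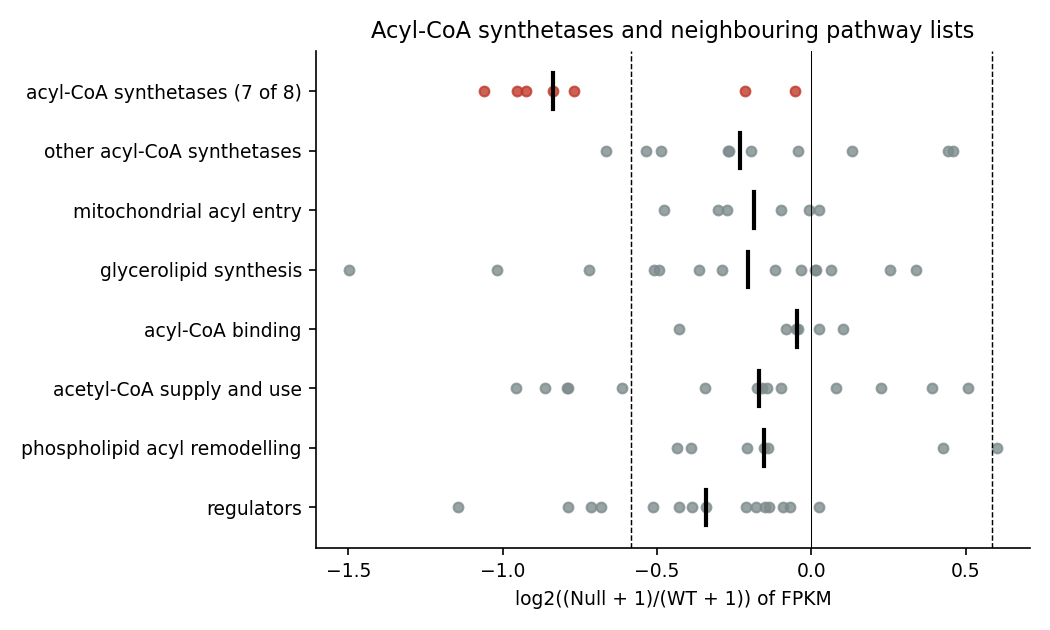
log2 ratio of Null to WT (horizontal axis) for each measured gene of the acyl-CoA synthetases (red, top row) and of 7 neighbouring gene lists (grey), with a black bar at each median and dashed lines at 1.5-fold. The synthetases have a median of -0.84, and the medians of the other lists lie between -0.34 and -0.05.

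Markers of cell types were counted in the same way, where 6.75% of all genes were lower and 7.87% higher by 1.5-fold or more. In a short list, a single call cannot be told from those shares. Of 15 skeletal muscle fibre markers 9 stood lower in Null at the same threshold and 0 higher. Their median log2 ratio was -0.81, close to the -0.84 of the synthetases. The sums were less alike. That of the muscle markers was 2882 FPKM in Null and 3904 FPKM in WT, a ratio of 0.738. For the 8 synthetases, Null held 54.6% of the WT sum. The most abundant were Tnni2 at 472 FPKM in Null and 655 FPKM in WT, Tnnt3 at 418 FPKM in Null and 596 FPKM in WT, and Mylpf at 513 FPKM in Null and 481 FPKM in WT, all within 1.5-fold. Picked after their values were seen, the myosin heavy chains Myh4, Myh7, Myh1 and Myh2 had log2 ratios of -1.38, -1.70, -1.79 and -1.86. Pvalb at -0.01 and Myl1 at 0.12 hardly differed, so the list was not uniform.

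Of 13 brown adipocyte markers 2 were lower and 3 higher at that threshold, and their median log2 ratio was -0.10. Their summed level was 59628 FPKM in Null and 44990 FPKM in WT. The most abundant were Fabp4 at 34679 FPKM in Null and 27295 FPKM in WT, Cox8b at 11163 FPKM in Null and 6407 FPKM in WT, and Cox7a1 at 5343 FPKM in Null and 2634 FPKM in WT. The 3 higher were Cox8b, Cox7a1 and Adipoq. The 2 lower were Elovl3, at 17.5 FPKM in Null and 88.3 FPKM in WT, and Dio2, at 9.05 FPKM in Null and 18.6 FPKM in WT. Ucp1, given above, lay within 1.5-fold, with a log2 ratio of -0.28.

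Of 9 macrophage markers 5 were higher and 0 lower, with sums of 162 FPKM in Null and 106 FPKM in WT. Lyz2 was at 73.9 FPKM in Null and 55.9 FPKM in WT, Tyrobp at 32.8 FPKM in Null and 18.0 FPKM in WT, and Fcer1g at 21.1 FPKM in Null and 9.84 FPKM in WT. All 4 measured of 7 red cell markers were higher, with sums of 469 FPKM in Null and 158 FPKM in WT, led by Hba-a1 at 270.0 FPKM in Null and 96.4 FPKM in WT. Hbb-b2 was at 119 FPKM in Null and 45.0 FPKM in WT, and Hbb-b1 at 66.3 FPKM in Null and 10.1 FPKM in WT.

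Of 6 endothelial markers 1 was higher and 0 lower, with sums of 240 FPKM in Null and 191 FPKM in WT. The higher one was Cldn5, at 76.1 FPKM in Null and 27.9 FPKM in WT, while Cdh5 was at 61.2 FPKM in Null and 61.0 FPKM in WT and Pecam1 at 48.2 FPKM in Null and 46.8 FPKM in WT. Schwann cell and neuron markers summed to 125 FPKM in Null and 113 FPKM in WT, with 2 of 5 measured lower and 0 higher. S100b was at 94.3 FPKM in Null and 69.4 FPKM in WT, Mbp at 13.6 FPKM in Null and 23.5 FPKM in WT, and Syp at 10.4 FPKM in Null and 8.67 FPKM in WT.

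Hepatocyte markers summed to 55.9 FPKM in Null and 65.7 FPKM in WT, nearly all of it Cyp2e1 at 53.2 FPKM in Null and 64.7 FPKM in WT. Of the 2 measured, Apoa1 was higher, at 2.07 FPKM in Null and 0.393 FPKM in WT. It passed the filter only through its Null value, so no result is read from it. Alb was at 0.413 FPKM in Null and 0.340 FPKM in WT, and Fabp1 was listed at 0 in both pools.

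Ribosomal protein genes, whose mRNAs are short, had a median log2 ratio of 0.88 over 63 genes, 46 of them higher by 1.5-fold or more and 1 lower. The part of muscle fibres, other cells or mRNA length in the values of the synthetases was not tested. Relative to Ucp1 the level of Acsl1 was 0.149 in Null and 0.209 in WT. That of Acss2 was 0.123 in Null and 0.211 in WT. Ucp1 is 1 of the 13 brown adipocyte markers, of which 2 were lower and 3 higher, so another denominator would give other values.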

How the data were processed

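Poly(A) RNA of brown fat was sequenced from TruSeq libraries on an Illumina instrument, and small RNA with an Illumina kit, per the labels' protocols. Per the submitters' processing notes, the build was mm9 and the tools were BWA, CASAVA, DESeq, edgeR and TopHat; roles, versions and annotation: not given in the sources used here. FPKM values were deposited by the authors with 1 column per genotype, so 3 libraries were combined, and how is not stated. The authors also deposited microRNA values headed RPM, treated as a signal because each column sums to over 1000000. Beside them the authors deposited, per microRNA, a fold ratio (Null over WT) and p-values with and without adjustment, which compare 1 library with 1 library and are not used here. An FPKM of 0 may be a failed estimate.

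Samples were grouped by genotype in the labels. The planned limma test needed a column per sample and could not be run. Instead, log2((Null + 1)/(WT + 1)) was computed with Python 3.11.15, numpy 2.4.6 and pandas 2.3.3. It was taken for genes averaging 1 FPKM or more over the pools and counted at 1.5-fold or more. The calls were also run on a copy of the WT column with 2-fold changes put in and no noise. That checks the arithmetic only and gives no error rate. Shares used FPKM with no pseudocount. Named genes were all 8 members; from each pathway list the 4 most abundant and the 2 with the largest ratio; from each marker list the 3 most abundant. Others named, such as Ucp1, Alb, Fabp1, Hmgcs1, Acaca, Rxra, Elovl3, Dio2, Adipoq, Pvalb, Myl1 and the myosins, were chosen after their values were seen. The members and lists were chosen with earlier results of these data known. All list symbols were in the table. The alternatives were another pseudocount (0.1 FPKM), other filters (none, or a mean of at least 5 FPKM), other scalings (each column summing to 1000000, quantile normalization, the same upper quartile) and other denominators of the shares. Promoter sequences came from RefSeq (GRCm38.p6).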

Additional observations from a re-analysis of the deposited data

How the results depend on the processing

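The counts of 5 synthetases lower and 0 higher by 1.5-fold or more were the same with a pseudocount of 0.1 FPKM, with no filter, with a mean of at least 5 FPKM, with columns summing to 1000000, with quantile normalization and with the same upper quartile. Over these settings the log2 ratio ranged from -0.99 to -0.77 for Acsl1, from -1.14 to -0.92 for Acsl5, from -1.30 to -1.06 for Acss2, from -1.18 to -0.95 for Acss3 and from -1.07 to -0.84 for Acsl3, while Acsl4 (-0.25 to -0.01) and Acss1 (-0.43 to -0.21) stayed within 1.5-fold. With columns summing to 1000000 the median of all genes was -0.19 instead of 0.01, 15.8% of genes were lower and 4.56% higher, and 77.6% of the calls were lower instead of 46.2%. Lists outside the synthetases moved most there: 6 glycerolipid genes, 7 regulators and 3 other acyl-CoA synthetases were lower in that setting. The count of synthetases lower by 2-fold or more depended on the scaling. With columns summing to 1000000, Acsl3 (-1.065), Acsl5 (-1.14) and Acss3 (-1.183) joined Acss2 beyond 2-fold. With quantile normalization Acsl5 (-1.085) joined it. A single scale factor per column leaves the shares within a family as they are.

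Quantile normalization, which scales abundant and low genes unequally, moved the differences in share, Null minus WT. For Acsl1 the difference was 0.45 percentage points instead of 1.65, for Acsl4 0.77 instead of 0.58, for Acsl5 -1.49 instead of -2.12, for Acss1 7.08 instead of 6.15 and for Acss2 -7.55 instead of -6.04. For Acsl3 it turned to 0.24 instead of -0.15, and for Acss3 to 0.47 instead of -0.11. Without the most abundant member in the sum, the differences were -2.43 for Acsl5, 2.27 for Acsl4, 0.11 for Acsl6, 10.6 for Acss1 and -10.6 for Acss3, and that of Acsl3 turned to 0.048, which follows from the smaller sum.

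Leaving out each replicate was not run, since each genotype has 1 column. No paired analysis was possible because the columns carry no replicate numbers. mRNA sequencing depth is unknown, so no interval can be given.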
